A study of Mus musculus with 4 samples.

Results

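The interferon-stimulated genes are the transcripts that cells make in answer to type I interferon, and 50 of them, including the Ifi200 family, were followed here in regulatory T cells with and without the microRNA miR-142. The 50 were taken by symbol from the families that define this response: the OAS, IFIT, Mx, ISG15, IFITM and Schlafen genes, the transcription factors and RNA sensors of the pathway, and the Ifi200 genes. They were chosen by name and with earlier results of these data known. All 50 symbols were found in RefSeq. Of the 50, 44 had a probe set of their own on the array, among 22180 genes that did. Oas1a, Dtx3l, Ifi47 and Ifi203 were covered only by 4 probe sets shared with other genes, and Ifi44 and Ifi206 had none under those symbols.

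The question of the study was what the loss of miR-142 does to Foxp3+ regulatory T cells (Tregs). Expression was measured on 4 Affymetrix Mouse Gene ST arrays, 2 from Tregs of FoxP3YFP-Cre x Mir142fl/fl mice (TregΔ142) and 2 from Tregs of FoxP3YFP-Cre x Mir142+/+ mice (WT). Both groups carried the same Cre, which is expressed together with YFP from the Foxp3 locus, and in both the cells were sorted as YFP+. The WT mice were littermates matched for age and sex. The floxed allele was made in embryonic stem cells of a strain other than C57BL/6, to which it was then backcrossed. Neither the age of the mice behind the arrays nor whether a sample was 1 animal or a pool is stated in the sources read here. The p-values therefore cover only the scatter among these 4 samples, part of which may be technical.

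Type I interferons bind the receptor made of Ifnar1 and Ifnar2, and the kinases Jak1 and Tyk2 then pass the signal on. Stat2 and Irf9 act in a complex that binds the interferon-stimulated response element in the promoters of its targets. The products block viral entry, destroy or sequester viral RNA, sense nucleic acids, and tune the pathway itself through feedback inhibitors such as Usp18 and Socs1. The Ifi200 genes, which lie in a row on mouse chromosome 1, encode proteins with pyrin or HIN domains, some of which bind DNA. miR-142 is a microRNA made by blood cells of all lineages, and its hairpin gives a mature strand from each arm.

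The mature strands of the deleted microRNA are shown as RefSeq gives them, with the seed, bases 2 to 8, in capitals. The first lies at chr11:87756867-87756887 and the second at chr11:87756903-87756925, both on the plus strand of GRCm38.p6.
mmu-miR-142a-5p: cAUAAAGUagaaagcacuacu
mmu-miR-142a-3p: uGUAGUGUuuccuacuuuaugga
The probe set of Mir142 read 6.44 and 5.96 in TregΔ142 and 8.88 and 9.26 in WT on the log2 scale. The difference of −2.87 (SE 0.20, adjusted p = 0.022 by limma) ran the way the labels say.

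The interferon-stimulated response element was searched for as GAAANNGAAA, on both strands, in the RefSeq windows from 250 bases before to 50 bases after each gene's start. A window was found for 39 of the 50 genes, and 22 of these 39 genes (56.41%) held the motif, against 1079 of 27025 genes (3.993%) in the whole table. The gamma-activated site, TTCNNNGAA, which reads the same on both strands, was in 7 of the 39 genes (17.95%) and in 9.554% of all genes. The motifs were searched separately, and a match of one may overlap a match of the other. The stretches below hold the matches of the response element, in capitals, of genes whose values are described further on. They are written along the gene's own strand, 5′ to 3′, and a match on the opposite strand appears as the reverse complement of the motif. The first group belongs to genes with lower values in TregΔ142.
Ifit1: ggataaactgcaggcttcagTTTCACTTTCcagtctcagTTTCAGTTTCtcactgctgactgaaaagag
Ifit1bl1: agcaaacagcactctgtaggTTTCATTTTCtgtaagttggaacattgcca
Ifit3b: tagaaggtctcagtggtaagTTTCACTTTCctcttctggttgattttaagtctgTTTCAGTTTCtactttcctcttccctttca
Rsad2: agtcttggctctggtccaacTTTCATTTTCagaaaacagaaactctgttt
Ifi208: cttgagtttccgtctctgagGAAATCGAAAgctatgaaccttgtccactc
Slfn5: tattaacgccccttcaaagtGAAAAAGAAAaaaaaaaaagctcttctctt
Their positions on GRCm38.p6 are chr19:34640765-34640833 (plus strand) for Ifit1, chr19:34599421-34599470 (minus) for Ifit1bl1, chr19:34607749-34607832 (plus) for Ifit3b, chr12:26456543-26456592 (minus) for Rsad2, chr1:173673587-173673636 (plus) for Ifi208 and chr11:82951927-82951976 (plus) for Slfn5. The next pair belongs to genes with higher values in TregΔ142, and lies at chr7:140955978-140956027 and chr7:141010696-141010762, both on the minus strand.
Ifitm2: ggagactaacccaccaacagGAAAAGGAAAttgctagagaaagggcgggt
Ifitm3: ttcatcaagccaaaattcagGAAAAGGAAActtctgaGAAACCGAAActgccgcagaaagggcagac
Among the genes with an unadjusted p under 0.05 (below), the response element was in 6 of the 7 lower genes that had a window and in 2 of the 5 higher ones, and it was in 11 of the 21 remaining measured genes that had one. Oasl1, Isg20, Xaf1 and Ifitm1 held no response element in their windows. Matches of the gamma-activated site, as in the windows of Isg20 and Ifitm3, are not marked. A match is a description of the letters and not a measured binding site.

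The values were log2 intensities from the authors' RMA normalization, 1.87 to 13.9 over the table, and 23521 probe sets with exactly 1 gene symbol were tested with limma. The number of arrays, 2 a group, limits the precision. The defining Treg transcripts Foxp3, Cd4 and Cd3e among others had a mean level of 11.6 on both TregΔ142 arrays and of 11.4 and 11.3 on the WT arrays, and Il2ra and Tnfrsf18 were 2 of these 9 with an unadjusted p under 0.05, both higher in TregΔ142. Macrophage and monocyte markers, 13 of 14 measured, had mean levels of 6.91 and 6.71 in TregΔ142 and 7.34 and 6.55 in WT. The B cell markers (9 of 10) ranged from 6.09 to 6.33 in mean level over the arrays, the dendritic cell markers (10 of 11) from 5.84 to 6.11 and the neutrophil markers (10 of 10) from 5.83 to 6.56. The NK and CD8 T cell markers (6 of 7) ranged from 5.84 to 6.08. Of these 6, Eomes alone had an unadjusted p under 0.05. It read 7.58 and 7.38 in TregΔ142 and 6.53 and 6.03 in WT (2.30-fold higher, adjusted p = 0.099 by limma). The 1 measured erythroid marker of 7, Klf1, read 5.28 to 5.83. No value of the table is 0, and no detection calls were used here, so that which low values lie above background is not known.

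No interferon gene passed the adjusted test. After Benjamini-Hochberg adjustment over all probe sets, 0 of the 44 measured genes had an adjusted p under 0.05 in limma, where 6 of the 23521 probe sets (0.0255%) had. At an unadjusted p under 0.05, 11 of the 44 had lower values in TregΔ142, beside 4.85% of all probe sets, and 6 had higher values, beside 6.82%. At the study's own threshold, at least 2-fold with an unadjusted p under 0.05, 3 genes were lower (0.115% of all probe sets) and 0 were higher (0.391%). The 3 were Ifi208, Oas2 and Ifit1bl1. Over the 44 genes the median log2 difference, TregΔ142 minus WT, was −0.18, beside 0.01 over all probe sets, with 27 negative and 17 positive values from −1.33 to 0.63. In bulk samples, fewer cells of a type and less RNA per cell cannot be told apart.

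The 4 arrays of a gene did not overlap between the groups in 19 genes that were lower in TregΔ142 (19.8% of all probe sets) and 9 that were higher (23.9%), shares of the 44 that for the higher genes were close to the background. In 21 genes (14 of them lower) the group difference exceeded the difference between the arrays of either group, beside 31.0% of all probe sets. Of the 35 genes whose level was above the median of the tested probe sets, 9 were lower and 4 higher at an unadjusted p under 0.05, beside 6.16% and 8.20% of the probe sets above that median. With a variance that was allowed to follow the level, 1 gene, Ifi208, had an adjusted p under 0.05 (0.039), among 0.489% of all probe sets.

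**Figure D1:**
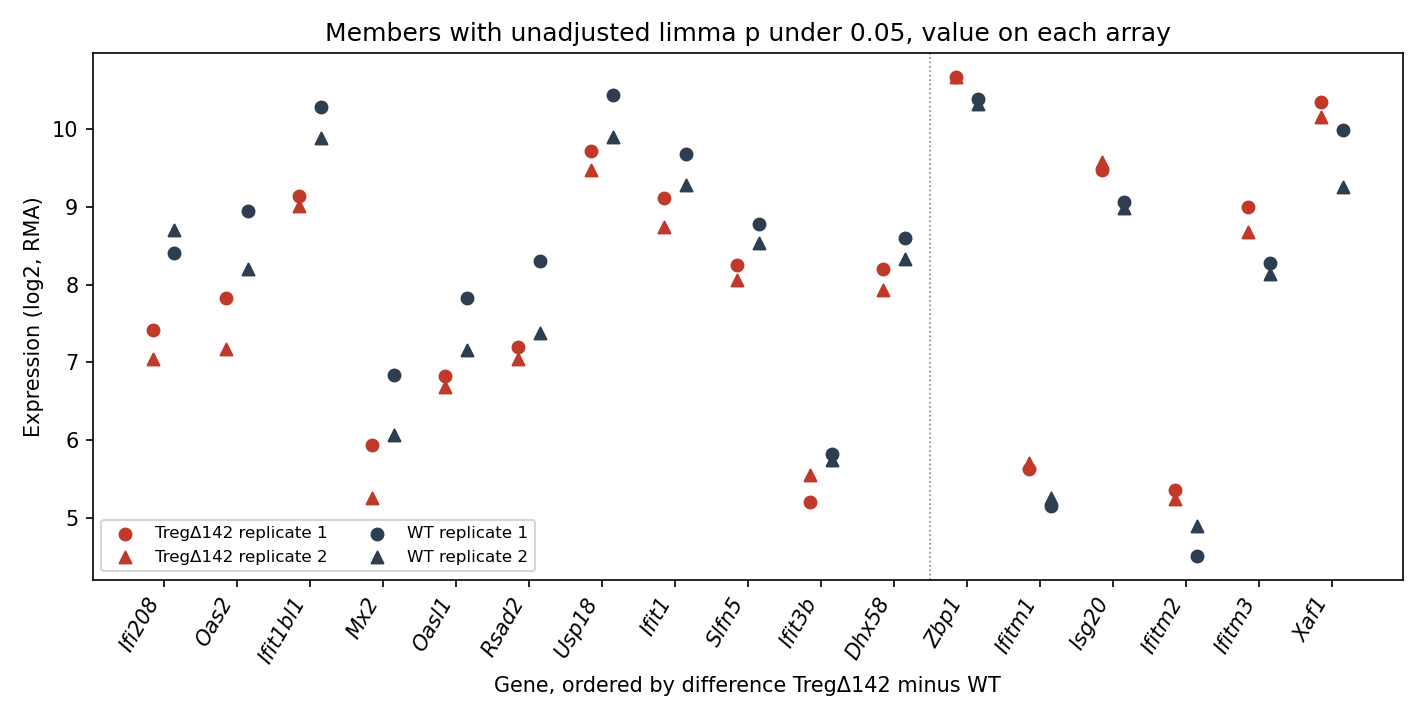
Expression (log2, RMA) on each of the 4 arrays of the 17 interferon genes with an unadjusted limma p under 0.05, ordered by their difference, with the 11 lower genes left of the dotted line and the 6 higher ones right of it. Circles are replicate 1 and triangles replicate 2; in each gene shown the arrays of the groups do not overlap, and in Ifi208 WT replicate 2 is the higher of the WT arrays while in Oas2, Oasl1, Mx2 and Rsad2 it is the lower by 0.66 to 0.93.

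The arrays of 1 group were not alike in the interferon genes. WT replicate 1 stood above WT replicate 2 in 35 of the 44 genes (79.5%; 48.5% of all probe sets), and TregΔ142 replicate 1 above replicate 2 in 34 (77.3%; 50.7%). The median size of the difference between the arrays of a group was 0.24 in WT and 0.18 in TregΔ142 over the 44 genes, against 0.14 and 0.15 over all probe sets. The mean level of the 44 was 8.21 and 8.04 in TregΔ142 and 8.42 and 8.17 in WT, so TregΔ142 replicate 1 lay above WT replicate 2.

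Several of the counts changed when a single array was left out. The share of all probe sets was not taken for these settings, so the counts that follow have no background beside them. A general change in what passes cannot be told apart from one in the interferon genes. Without WT replicate 1, 4 genes were lower at an unadjusted p under 0.05, and without TregΔ142 replicate 2, 3 were, in place of 11. The count of lower genes at the study's threshold was 1, Ifi208, without either of these arrays, and 7 without WT replicate 2. Without WT replicate 1, 1 higher gene, Xaf1, also passed that threshold. WT replicate 1 was also the array with the highest macrophage and monocyte markers, with a median difference of 0.73 over WT replicate 2, and with Adgre1, which encodes the macrophage surface protein F4/80, at 7.35 and 5.83 on the WT arrays and at 6.17 and 5.53 in TregΔ142. In 10 of the 13 markers WT replicate 1 was above WT replicate 2, while Lyz2, which encodes lysozyme, ran the other way at 8.05 and 8.64 in WT and was higher in TregΔ142, at 9.31 and 8.68, the 1 marker of the list with an unadjusted p under 0.05. Itgam and Marco were also lower in WT replicate 1 than in WT replicate 2. The B cell markers too had their highest mean on WT replicate 1, at 6.33. All 9 measured B cell markers were above WT replicate 2 there, by a median of 0.19. The part of these markers in the interferon values was not tested.

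**Figure D2:**
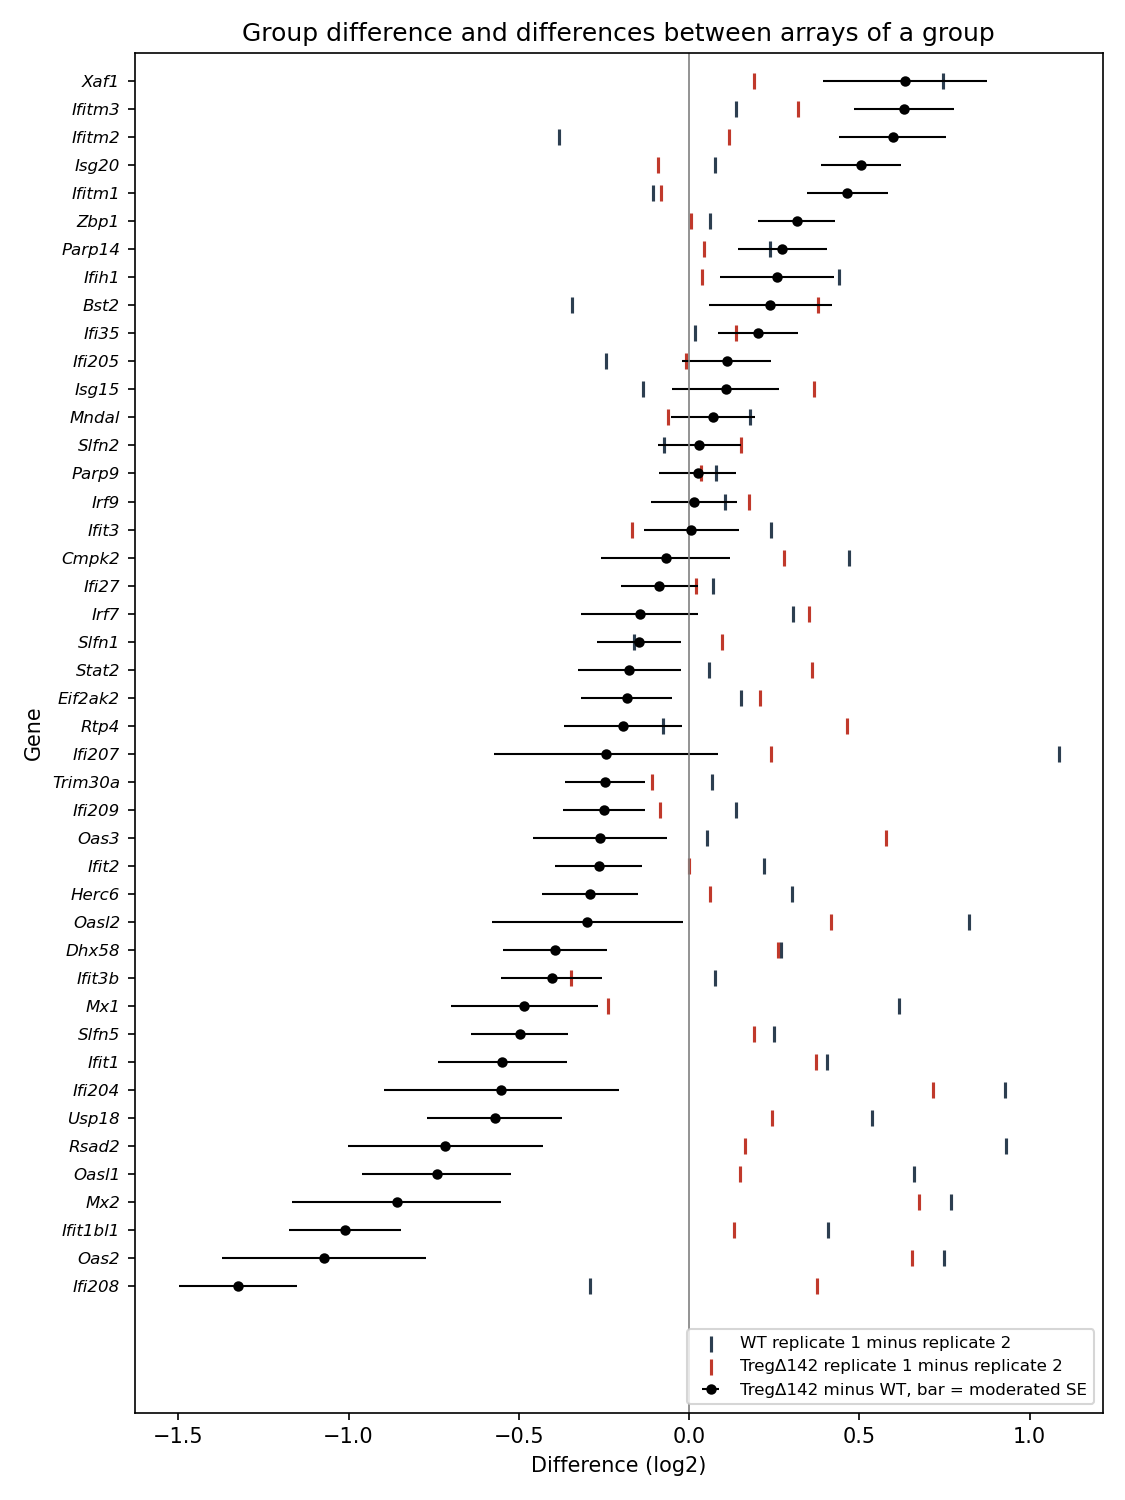
Log2 difference TregΔ142 minus WT (points, with the moderated SE as a bar) for the 44 measured interferon genes, with the difference between replicates 1 and 2 of WT (dark marks) and of TregΔ142 (red marks) on the same scale. Ifi208 lies farthest to the left at −1.33, with array differences of −0.29 in WT and 0.37 in TregΔ142, and in Ifi207 the array difference of 1.08 in WT exceeds the group difference of −0.24.

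The oligoadenylate synthetase family includes enzymes that answer viral RNA by making the oligoadenylates that switch on RNase L. It had lower means in TregΔ142 in all 4 measured members, 2 of them at an unadjusted p under 0.05 (4.85% of all probe sets). The median difference was −0.52, and leaving out WT replicate 1 made it −0.32, leaving out WT replicate 2 made it −0.89, and it was −0.30 with the shared probe set of Oas1a taken in. Oas2 read 7.83 and 7.18 in TregΔ142 and 8.95 and 8.20 in WT. Both TregΔ142 arrays were below both WT arrays, although the arrays of each group were 0.65 and 0.75 apart. The difference was −1.07 (SE 0.30, 2.10-fold lower, adjusted p = 0.273 by limma). It was −0.70 without WT replicate 1 and −0.74 without TregΔ142 replicate 2. Oasl1, which in the mouse holds back the translation of Irf7, was at 6.83 and 6.68 in TregΔ142 and at 7.83 and 7.16 in WT. Its groups did not overlap and the difference was −0.74 (SE 0.22, adjusted p = 0.294), between −1.07 and −0.41 when each array was left out and smallest without WT replicate 1. Oas3 read 8.48 and 7.90 in TregΔ142 and 8.48 and 8.43 in WT, and TregΔ142 replicate 2 alone was low. Its difference of −0.26 turned to 0.03 without that array. Oasl2 read 8.18 and 7.77 in TregΔ142 and 8.68 and 7.86 in WT. Here WT replicate 1 alone was high, and the difference of −0.30 turned to 0.11 without it. Oas1a was seen only through a probe set shared with Oas1g, which had a difference of −0.26.

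The IFIT proteins bind viral RNA and block its translation, and 3 of the 5 genes had an unadjusted p under 0.05, all lower in TregΔ142, beside 4.85% of all probe sets. Ifit1bl1, whose promoter stretch is printed above, read 9.14 and 9.01 in TregΔ142 and 10.29 and 9.88 in WT. The gap between the groups was wider than the gap within either. The difference was −1.01 (SE 0.16, 2.01-fold lower, adjusted p = 0.104), and it lay between −1.21 and −0.81 when each array was left out. Ifit1 read 9.12 and 8.75 in TregΔ142 and 9.69 and 9.28 in WT. The groups did not overlap, and its difference of −0.55 (SE 0.19, adjusted p = 0.357) exceeded the distance between the arrays of each group. It became −0.35 without WT replicate 1 and −0.36 without TregΔ142 replicate 2, short of the unadjusted threshold in both. Ifit3b read 5.21 and 5.56 in TregΔ142 and 5.82 and 5.75 in WT, with a difference of −0.40 (SE 0.15, adjusted p = 0.383) that became −0.23 without TregΔ142 replicate 1. In this gene TregΔ142 replicate 1 was the lower TregΔ142 array, unlike in Oas2 and Ifit1. The other IFIT genes were flatter: Ifit2 had a difference of −0.27 without overlap and Ifit3 one of 0.01 with arrays that interleaved. The IFIT genes are near-identical in parts, so that signal may be shared between their probe sets.

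The group of the Mx proteins and other antiviral effectors held genes on both sides, with 2 of 10 lower and 3 higher at an unadjusted p under 0.05, beside 4.85% and 6.82% of all probe sets. The median difference was −0.13, and 0.08 over those above the median level. Mx2, a dynamin-like GTPase, read 5.94 and 5.26 in TregΔ142 and 6.84 and 6.07 in WT. The groups did not overlap, but TregΔ142 replicate 1 and WT replicate 2 were only a little apart. The difference was −0.86 (SE 0.31, adjusted p = 0.372). It became −0.47 without WT replicate 1 and −0.52 without TregΔ142 replicate 2, and missed the unadjusted threshold in both. Mx1 read 4.73 and 4.97 in TregΔ142 and 5.64 and 5.02 in WT, where again WT replicate 1 stood out, and its difference of −0.48 missed the unadjusted threshold (adjusted p = 0.458). Rsad2, or viperin, which makes a chain-terminating nucleotide, read 7.20 and 7.04 in TregΔ142 and 8.30 and 7.37 in WT. Its difference of −0.72 (SE 0.29, adjusted p = 0.414) was smaller than the 0.93 between the WT arrays, and was −0.25 without WT replicate 1. Cmpk2, a nucleotide kinase gene next to Rsad2, had a difference of −0.07.

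The 3 higher genes of the same group were Isg20, Zbp1 and Xaf1. Isg20, an exonuclease that degrades RNA, read 9.48 and 9.58 in TregΔ142 and 9.06 and 8.99 in WT. The replicates were close and the groups apart, with a difference of 0.50 (SE 0.12, 1.42-fold higher, adjusted p = 0.212). Zbp1, which senses Z-form nucleic acids and can start necroptosis, read 10.67 on both TregΔ142 arrays and 10.39 and 10.33 in WT. Its difference of 0.32 (SE 0.11, adjusted p = 0.372) was larger than the spread in both groups. With the arrays centred on their medians it was 0.27 and missed the unadjusted threshold. The threshold was also missed with the replicate number as a block. Xaf1, which promotes apoptosis by binding XIAP, read 10.35 and 10.16 in TregΔ142 and 9.996 and 9.252 in WT. WT replicate 2 was the low array, and the difference of 0.63 (SE 0.24, adjusted p = 0.395) was smaller than the 0.74 between the WT arrays. It became 0.26 without WT replicate 2 and 1.01 without WT replicate 1. The remaining effectors, Bst2 (tetherin) at 0.24, Eif2ak2 (the kinase PKR) at −0.18 and Trim30a at −0.25, did not pass the unadjusted threshold.

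In the ISG15 system, in which a ubiquitin-like protein is joined to others and removed again, Usp18 had lower values. Usp18, the protease that removes ISG15 and that also blocks signalling at Ifnar2, read 9.72 and 9.48 in TregΔ142 and 10.44 and 9.90 in WT. The groups did not overlap and the difference was −0.57 (SE 0.20, adjusted p = 0.359). It became −0.30 without WT replicate 1 and −0.45 without TregΔ142 replicate 2, and missed the unadjusted threshold in both. Isg15 itself interleaved at 5.99 and 5.63 in TregΔ142 and 5.63 and 5.77 in WT. Herc6, the main ISG15 ligase of the mouse, had a difference of −0.29 without overlap (adjusted p = 0.484).

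The transcription factors had small differences. Irf9, a DNA-binding partner of Stat2, read 10.14 and 9.96 in TregΔ142 and 10.09 and 9.98 in WT, and its difference of 0.01 changed sign when the arrays were centred on their medians. Irf7, the factor that amplifies interferon production, interleaved at 9.46 and 9.11 against 9.58 and 9.28 in WT, and Stat2 had a difference of −0.18. Of the RNA sensors, Dhx58 (LGP2) read 8.20 and 7.94 in TregΔ142 and 8.60 and 8.33 in WT. Its groups were apart by more than the arrays of each, with a difference of −0.39 (SE 0.15, adjusted p = 0.401) that became −0.26 without WT replicate 1 or without TregΔ142 replicate 2. Ifih1 (MDA5), of the same family of helicases, had a difference of 0.26 with the opposite sign (adjusted p = 0.596).

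Parp9 and Dtx3l, partners in ADP-ribosylation and ubiquitin transfer, had a difference of 0.02 for Parp9 alone and of 0.34 on the probe set that carries both symbols (adjusted p = 0.413). Parp14, another ADP-ribosyltransferase, read 10.40 and 10.36 in TregΔ142 and 10.22 and 9.99 in WT, apart but short of the unadjusted threshold (adjusted p = 0.481). The probe set of Ifi47, an interferon-induced GTPase, is shared with the olfactory receptor gene Olfr56 and read 8.05 and 8.19 in TregΔ142 and 7.52 and 7.62 in WT. Its arrays did not overlap and the difference was 0.55 (adjusted p = 0.214), but which of the pair gave the signal cannot be told apart. Ifi35 read 9.93 and 9.80 in TregΔ142 and 9.67 and 9.66 in WT, with a difference of 0.20 on this probe set and 0.05 on its other one. Ifi27 and Rtp4 had differences of −0.09 and −0.19.

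In the Ifi200 family, 1 of the 6 measured members, Ifi208, had an unadjusted p under 0.05, beside 4.85% of all probe sets that were lower, and it held the largest difference of all 44 genes. The median of the family, −0.25, became −0.05 when WT replicate 1 was left out, −0.55 when WT replicate 2 was, and −0.06 with shared probe sets taken in. Ifi208 read 7.42 and 7.04 in TregΔ142 and 8.41 and 8.70 in WT. Both WT arrays were clear of both TregΔ142 arrays, and WT replicate 1, which was the higher WT array in most interferon genes, was the lower one here. The difference was −1.33 (SE 0.17, 2.51-fold lower, adjusted p = 0.0751 by limma), and it lay between −1.51 and −1.14 when each array was left out. Ifi209, the family member with the highest values, read 10.60 and 10.69 in TregΔ142 and 10.97 and 10.83 in WT. Its groups were apart by a small step, with a difference of −0.25 (SE 0.12, adjusted p = 0.482). Ifi204, a DNA sensor related to human IFI16, read 3.72 and 3.0 in TregΔ142 and 4.37 and 3.45 in WT. These values are low and the arrays overlapped, with a difference of −0.55 (SE 0.35, adjusted p = 0.586), while the probe set it shares with Ifi211 had a difference of 0.32 of opposite sign. Ifi207 read 5.64 and 5.40 in TregΔ142 and 6.31 and 5.22 in WT, and the WT arrays enclosed the TregΔ142 arrays. Mndal and Ifi205 had differences of 0.07 and 0.11, and Ifi203, seen on a probe set shared with its pseudogene, one of −0.06.

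Along the chromosome, RefSeq orders the cluster as Ifi206, Ifi214, Ifi213, Ifi209 and Ifi208, followed by Ifi207, Ifi204, Mndal, Ifi211, Ifi203, Ifi202b and Ifi205 with pseudogenes and predicted genes between them. The neighbours Ifi214 and Ifi213, which were not among the 50, were also lower in TregΔ142. Ifi213 read 7.79 and 7.95 in TregΔ142 and 8.63 and 8.46 in WT, which gave a difference of −0.68 (adjusted p = 0.145). Ifi214 read 8.54 and 8.43 in TregΔ142 and 9.30 and 8.77 in WT, which gave a difference of −0.55 (adjusted p = 0.353). In both neighbours the groups did not overlap, and the 4 adjoining genes from Ifi214 to Ifi208 had negative differences, as did Ifi207 and Ifi204, which come next among the measured genes and whose arrays overlapped. Mndal, Ifi202b and Ifi205 lay between 0.03 and 0.11. Ifi202b read only 2.83 to 2.88 over the arrays, and whether it lies above background is not known. Aim2, the inflammasome sensor that lies before the cluster, had a difference of 0.05. Sequences are alike within the family, so that probes may hybridise to several of its transcripts.

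**Figure D3:**
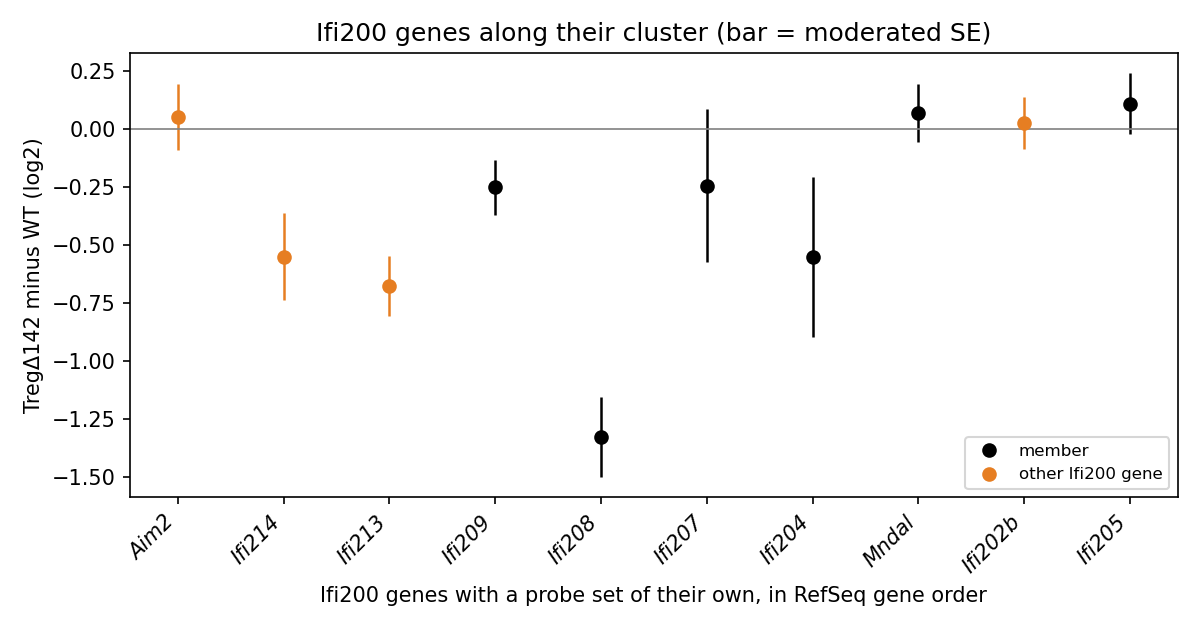
Log2 difference TregΔ142 minus WT (bars are the moderated SE) of the Ifi200 genes with a probe set of their own, placed in RefSeq gene order and not to distance. Black points are among the 50 genes and orange points are further Ifi200 genes. Ifi214, Ifi213, Ifi209 and Ifi208 lie side by side with differences from −0.25 to −1.33. Ifi207 and Ifi204 follow with −0.24 and −0.55 and wide bars. The genes at the right end lie near 0, among them Ifi202b with values of only 2.83 to 2.88.

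The IFITM genes, which encode membrane proteins that stop enveloped viruses from fusing, had higher values in TregΔ142 in all 3 members that were among the 50, each at an unadjusted p under 0.05 (6.82% of all probe sets). Of their relatives on a further list, Ifitm6 had a difference of 0.11 with arrays that overlapped and Ifitm10 one of −0.07. Ifitm3 read 8.996 and 8.677 in TregΔ142 and 8.27 and 8.14 in WT. The groups were apart by more than the arrays of each, with a difference of 0.63 (SE 0.15, 1.55-fold higher, adjusted p = 0.216). Ifitm2 read 5.36 and 5.24 in TregΔ142 and 4.51 and 4.90 in WT. WT replicate 1 was the lower WT array, and the difference was 0.60 (SE 0.16, adjusted p = 0.253). Ifitm1 read 5.63 and 5.71 in TregΔ142 and 5.15 and 5.26 in WT. Its replicates were close, with a difference of 0.46 (SE 0.12, adjusted p = 0.241). Leaving out each array kept Ifitm3 between 0.47 and 0.79, Ifitm2 between 0.41 and 0.79 and Ifitm1 between 0.41 and 0.52. Ifitm2 and Ifitm3 are close paralogs, and their probe sets may share signal. Only Ifitm3 lay above the median level of the tested probe sets (6.28). Ifitm1 and Ifitm2 lay below it, and both WT values of Ifitm2 were under the 25th percentile of the tested levels (5.14). Whether these low values lie above background is not known.

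Of the Schlafen genes, which include regulators of T cell growth and quiescence, Slfn5 had lower values. Slfn5 read 8.26 and 8.07 in TregΔ142 and 8.78 and 8.53 in WT, with no overlap and a difference of −0.50 (SE 0.14, adjusted p = 0.278). This became −0.37 without WT replicate 1 and −0.40 without TregΔ142 replicate 2. On a second probe set, which Slfn5 shares with its antisense transcript, the difference was −0.14. Slfn1 read 10.49 and 10.39 in TregΔ142 and 10.51 and 10.67 in WT, which gave a difference of −0.15 (adjusted p = 0.688), and Slfn2, whose loss in the mouse breaks T cell quiescence, had one of 0.03. The Schlafen genes, Xaf1, Dhx58 and Ifi35 lie on chromosome 11, as Mir142 does, and the differences of these 6 genes ran in both directions, from −0.50 for Slfn5 to 0.63 for Xaf1.

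**Figure D4:**
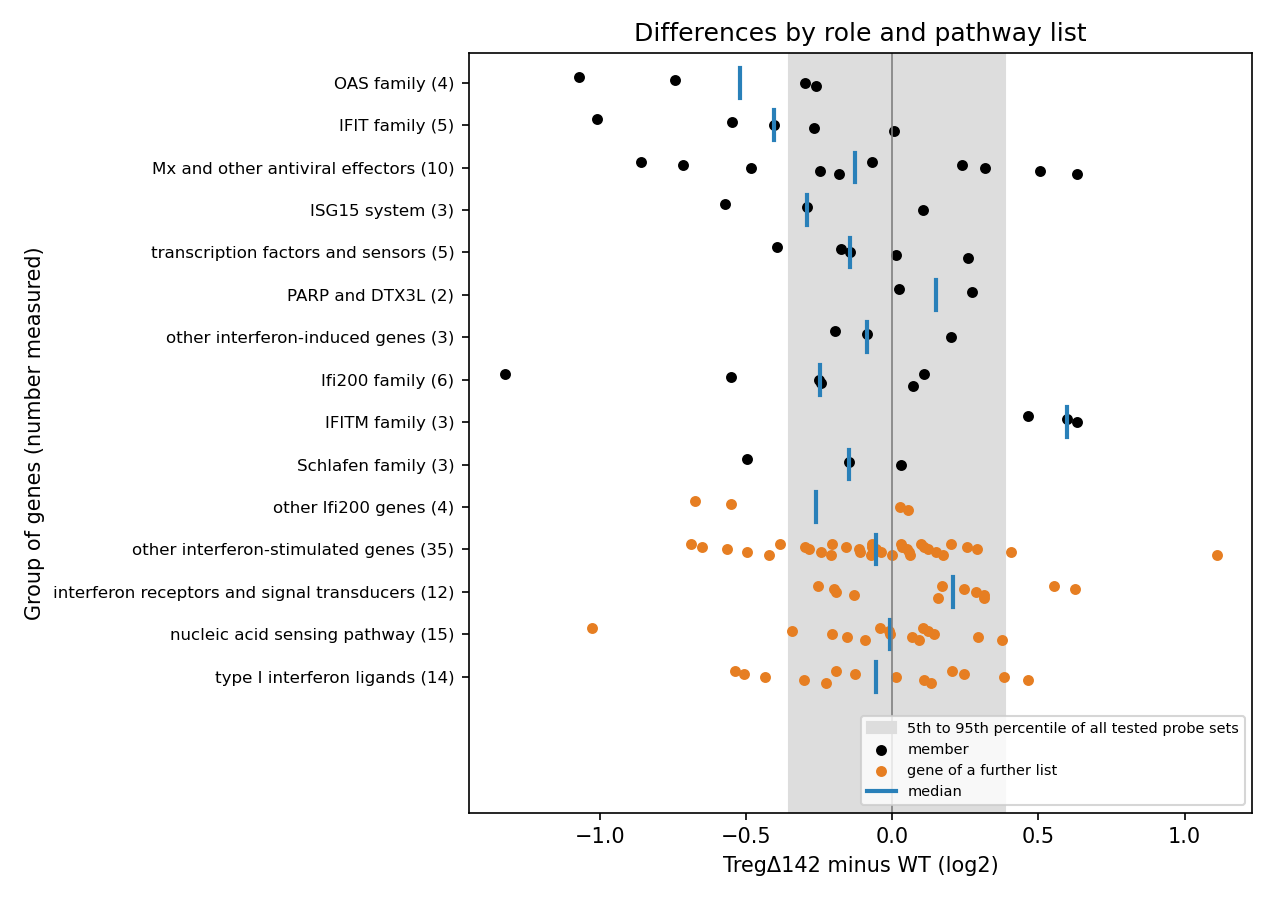
Log2 difference TregΔ142 minus WT of each measured gene, by role for the interferon genes (black) and for 5 further lists of the pathway (orange), with the median of each group as a blue bar and the 5th to 95th percentile of all tested probe sets, −0.35 to 0.39, in grey. The OAS median lies at −0.52 and the IFITM median at 0.60, and the receptors and signal transducers have a median of 0.21.

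The list of receptors and signal transducers also holds Irf genes and feedback inhibitors. Of its 12 measured genes, 5 had higher values in TregΔ142 at an unadjusted p under 0.05 and 0 had lower ones. These counts stand beside 6.82% and 4.85% of all probe sets, and the median difference was 0.21. None of the 12 passed the adjusted test in limma. Socs1, a feedback inhibitor of Jak kinases, read 9.43 and 9.24 in TregΔ142 and 8.70 and 8.72 in WT, which gave a difference of 0.63 (adjusted p = 0.158). Irf1, a transcription factor best known from the interferon gamma response, read 10.26 and 10.28 in TregΔ142 and 9.86 and 9.56 in WT, which gave a difference of 0.55 (adjusted p = 0.239). In both genes all TregΔ142 arrays were above all WT arrays. The receptor subunit Ifnar1 had a difference of 0.32, the factor Irf8 one of 0.31 and Irf2 one of 0.29. The other receptor subunit, Ifnar2, had a difference of 0.16, and the kinases Jak1 and Tyk2 had −0.20 and −0.25. These last genes were short of the unadjusted threshold.

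In the nucleic acid sensing pathway, 1 of 15 measured genes was lower and 2 were higher at an unadjusted p under 0.05. These counts stand beside 4.85% and 6.82% of all probe sets, and 0 passed the adjusted test. Tlr7, an endosomal receptor for RNA that acts ahead of interferon production, read 7.80 and 7.09 in TregΔ142 and 8.60 and 8.35 in WT. The groups did not overlap, and the difference was −1.03 (adjusted p = 0.215), past the 2-fold limit. It was the 1 gene of the 15 that was lower at the study's threshold, beside 0.115% of all probe sets. Its adaptor Myd88 had a difference of 0.38 (adjusted p = 0.295) and Sting1, the adaptor for cytosolic DNA, one of 0.29 (adjusted p = 0.427), both of opposite sign to Tlr7. The type I interferon genes themselves were split, with 2 of 14 lower (4.85% of all probe sets) and 2 higher (6.82%) and a median difference of −0.06. Ifnk had a difference of −0.54, Ifna2 one of −0.44, Ifna1 one of 0.47 and Ifna9 one of 0.38. Ifnk, Ifna2 and Ifna9 read 3.86 to 4.64 over the arrays, below the 25th percentile of the tested levels (5.14). Whether they lie above background is not known. Ifna1 read 8.59 and 8.91 in TregΔ142 and 8.38 and 8.19 in WT.

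Of 35 further interferon-stimulated genes outside the 50, 6 were lower and 3 were higher at an unadjusted p under 0.05, beside 4.85% and 6.82% of all probe sets, with 0 passing the adjusted test and a median difference of −0.05. Slfn8 read 7.37 and 7.48 in TregΔ142 and 8.24 and 7.98 in WT, which gave a difference of −0.69 (adjusted p = 0.161). Trim25, the ubiquitin ligase that acts on the RNA sensor RIG-I, had a difference of −0.65, Trim30d one of −0.56 and Oas1c one of −0.38. Parp12, singled out after its values were seen, had the most positive difference of this list and read 9.42 and 9.14 in TregΔ142 and 8.83 and 7.51 in WT. Its difference of 1.11 (adjusted p = 0.367) was smaller than the distance between the WT arrays.

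**Figure D5:**
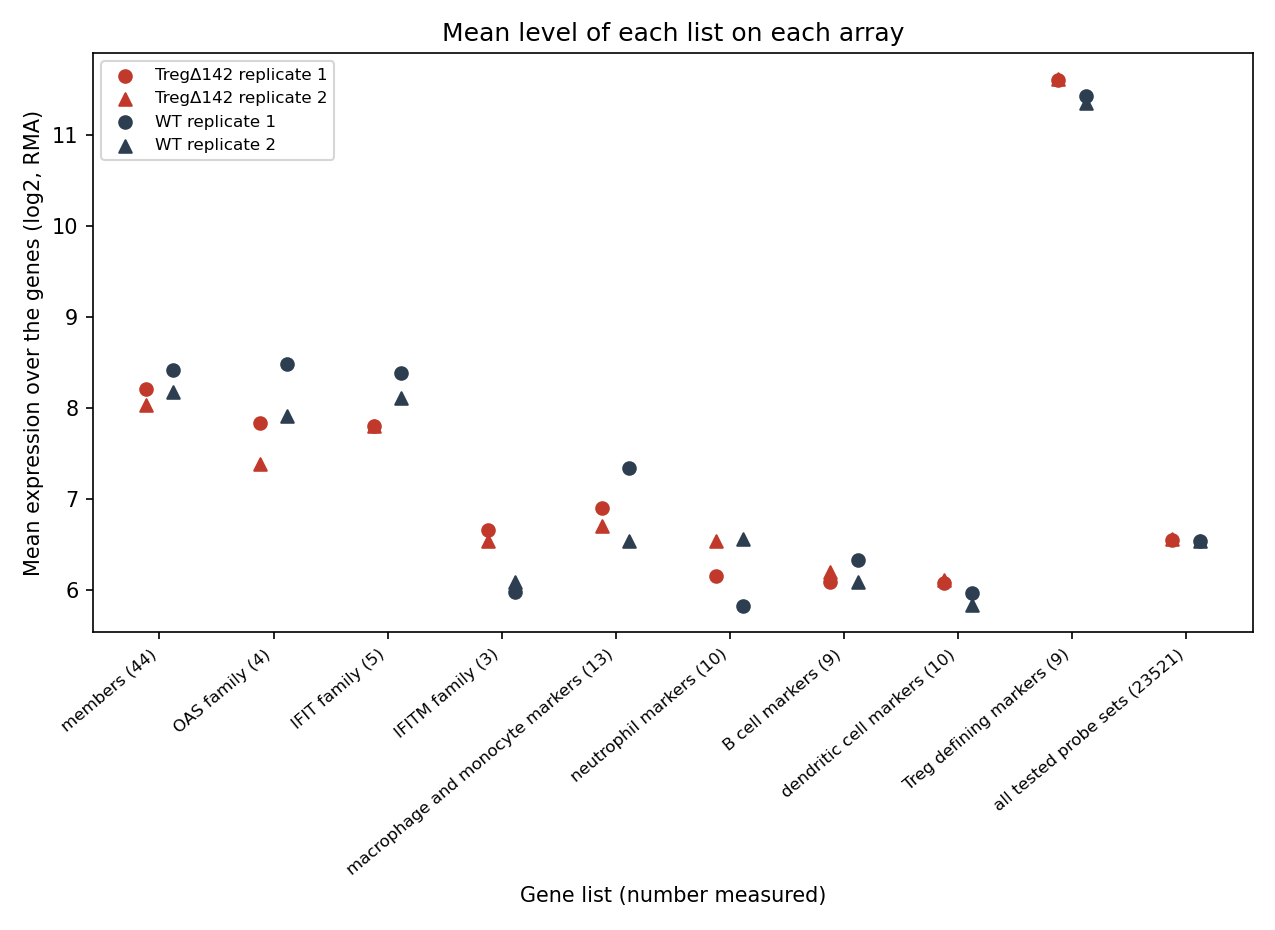
Mean expression (log2, RMA) of gene lists on each of the 4 arrays, for the 44 interferon genes, for the OAS, IFIT and IFITM families, for markers of other cells and of Tregs, and for all tested probe sets. WT replicate 1 (dark circle) is highest in the OAS and IFIT families, the macrophage and monocyte markers (7.34) and the B cell markers (6.33). It is the lowest array in the IFITM family and the neutrophil markers (5.83).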

How the data were processed

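Tregs were sorted from TregΔ142 and WT mice, and total RNA was amplified (Ovation Pico WTA) and hybridised to 4 Affymetrix Mouse Gene ST 2.0 arrays, 2 a group, individually processed. The deposited values are log2 expression values that the authors made by RMA (the oligo package is named in the submitters' processing notes). RMA sets the arrays to a common distribution, which hides any shift common to most transcripts. The table holds 41345 probe sets. Those with exactly 1 gene symbol (23521) were tested with lmFit and eBayes of limma 3.58.1 in R 4.3.3, TregΔ142 against WT with no block, and p-values were adjusted by Benjamini-Hochberg. Probe sets with several symbols (1820) or none (16004) were left out of the tests, and shared ones were fitted apart. The groups came from the sample titles. The script was tested on simulated data. Where a gene had more than 1 probe set, that with the higher mean level was used.

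The 50 genes, the further lists and the rule for named genes were chosen with earlier results of these data known. Among the 50 genes, array values were given for those with an unadjusted p under 0.05 and for the 10 largest differences. They were also given for the 4 largest differences between arrays of 1 group and for the highest gene of each role. Of each further list of the pathway, up to 4 genes with small p were named, several by their difference alone. Alternatives were a variance trend, the replicate number as a block, median centring, the methods' t-test, a filter at the median level, other handling of probe sets, and leaving out each array. Promoter and microRNA sequences are from RefSeq (GRCm38.p6).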

Additional observations from a re-analysis of the deposited data

How the results depend on the processing

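Of 26 genes followed under 9 alternatives, 226 of 234 values kept their direction and their side of the adjusted threshold. Averaging the probe sets of a gene moved the difference of Ifi35 alone. With a variance trend or with replicate numbers as a block, the differences equal those of the main fit. There direction could not turn, and only the side of the adjusted threshold could change. Ifi208 passed it with a variance trend (adjusted p = 0.039) and without WT replicate 1 (0.032). The direction turned in 6 values: Irf9 was at −0.033 with median centring and turned without TregΔ142 replicate 1 and without WT replicate 2 (range when each array was left out −0.074 to 0.101), Oas3 turned without TregΔ142 replicate 2 (−0.549 to 0.028), and Oasl2 (−0.710 to 0.112) and Ifi207 (−0.786 to 0.299) turned without WT replicate 1. The cause was not tested. The count of lower genes with an adjusted p under 0.05 was 1 with a variance trend and 1 among probe sets above the median level, where fewer are tested. The methods' t-test gave 2 lower and 3 higher genes at an unadjusted p under 0.05, in place of 11 and 6. Median centring gave 15 lower and 5 higher. Leaving out each array in turn gave 3 to 15 lower and 4 to 7 higher genes at an unadjusted p under 0.05, 1 to 7 lower and 0 to 1 higher at the study's threshold, 0 to 1 lower with an adjusted p under 0.05, 19 to 28 lower and 10 to 15 higher without overlap, and a median difference of −0.27 to −0.07. There the lone array is assumed to vary like the other group. With 1 array fewer, a lack of overlap is also easier to reach than with all 4. For these settings the share of all probe sets was not taken for overlap, the unadjusted p or the study's threshold. Nor was it taken at the unadjusted p or the study's threshold for the t-test, median centring or the replicate blocks below. Those counts therefore have no background beside them, and a rise in genes without overlap is not read as a stronger difference. With the replicate number as a block, 12 genes were lower and 5 higher at an unadjusted p under 0.05, 3 lower and 0 higher at the study's threshold, and 0 passed the adjusted test. Under the block Ifi204 joined the lower genes, Zbp1 left the higher ones, and Oas2 had an adjusted p of 0.104. Over all probe sets same-numbered arrays did not deviate together (correlation −0.12), though replicate 1 was the higher array in most of the 44 genes in both groups, and crossed numbers, tried after seeing the data, gave 10 lower and 6 higher. The 2 arrays a group limit what can pass, and low values such as those of Ifi204 have no detection call here.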
